A study of Mus musculus with 2 samples.

Results

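Aminoacyl-tRNA synthetases are the enzymes that join each amino acid to its transfer RNA, and they are described here in whole mouse embryos at embryonic day 10.5. The set held 36 genes chosen by name, 20 for the cytosolic and 16 for the mitochondrial enzymes, and their Ensembl identifiers were found in 35 of the 34624 loci of the deposited tables. Total RNA came from untreated embryos of CBA/Ca × C57Bl/10 crosses taken at 10.5 days post coitum, with the day of the plug counted as 0.5. There was 1 group of 2 replicates and no other condition. Whether each library came from a single embryo or from several is not stated in the labels, so the spread between replicates may be technical. Levels are in RPKM, read counts scaled by library size and by a length for each locus that is examined below. They are given as deposited, for replicate 1 and then replicate 2.

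Each synthetase recognises 1 amino acid and its transfer RNAs, activates the amino acid with ATP and transfers it to the end of the tRNA, which the ribosome then reads. Animal cells make proteins in the cytosol and, from the mitochondrial genome, inside mitochondria, and nuclear genes encode the synthetases of both compartments. The cytosolic enzymes serve the bulk of protein synthesis, and several of them sit in a multisynthetase complex held together by scaffold proteins. The enzymes fall into class I and class II by the fold of the catalytic domain, and the bifunctional Eprs carries 1 domain of each class.

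The deposited counts summed over loci to 18318181 in replicate 1 and 117522171 in replicate 2, and the synthetase loci took 0.368% and 0.324% of them. All 10 embryo marker genes reached 1 RPKM in both replicates, and so did 1 of 8 placental and decidual markers, Prl2c2 (5.20 and 3.07 RPKM). The same held for 65.1% of protein-coding loci. The levels of embryo markers could differ between replicates: the globin genes Hbb-y and Hba-x stood at 1746 and 6474 and at 1284 and 3219 RPKM. Of the 10, 5 were higher in replicate 2. The summed level of the 8 placental and decidual markers was 7.81 and 4.99 RPKM. Tpbpa and Psg21 had 0 reads in both replicates, and Prl3d1, Prl3b1, Prl8a9, Prl3c1 and Gcm1 stayed below 1 RPKM in at least 1 of them.

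All 36 synthetase genes lay in loci of 1 RPKM or more in both replicates. The same held for 49.4% of all loci and 65.1% of protein-coding loci. The cytosolic genes stood well above the mitochondrial ones. Hars and Hars2, the histidine enzymes of the cytosol and of mitochondria, shared a locus (116 and 106 RPKM) that the authors had joined, so their levels cannot be separated and the locus was left out of the comparison of compartments. Over the remaining 19 cytosolic genes the median was 104.8 RPKM in replicate 1 and 109.9 in replicate 2, and over the 15 mitochondrial genes it was 18.4 and 13.5. The ratio of these medians was 5.68 and 8.12, and 7.29 and 12.6 without joined loci. For reference, protein-coding loci of 1 RPKM or more had a median of 26.3 and 19.1, so that the median cytosolic gene lay above that level and the median mitochondrial gene below it. Among all protein-coding loci ranked by mean RPKM, the cytosolic genes spanned percentiles 72.2 to 97.8 (median 91.6) and the mitochondrial genes 48.5 to 92.4 (median 61.4). Members are not replicates of a condition, so no test was made between the compartments.

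The ranges of the compartments overlapped through few genes. The lowest cytosolic gene was Farsb (33.4 and 25.7), and 4 mitochondrial genes lay above it in each replicate, while 11 of 15 lay below it. In both replicates these 4 were Ears2, Iars2, Yars2 and Tars2, and Ears2 shares its locus with Ubfd1, so that its high value cannot be given to the synthetase.

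**Figure D1:**
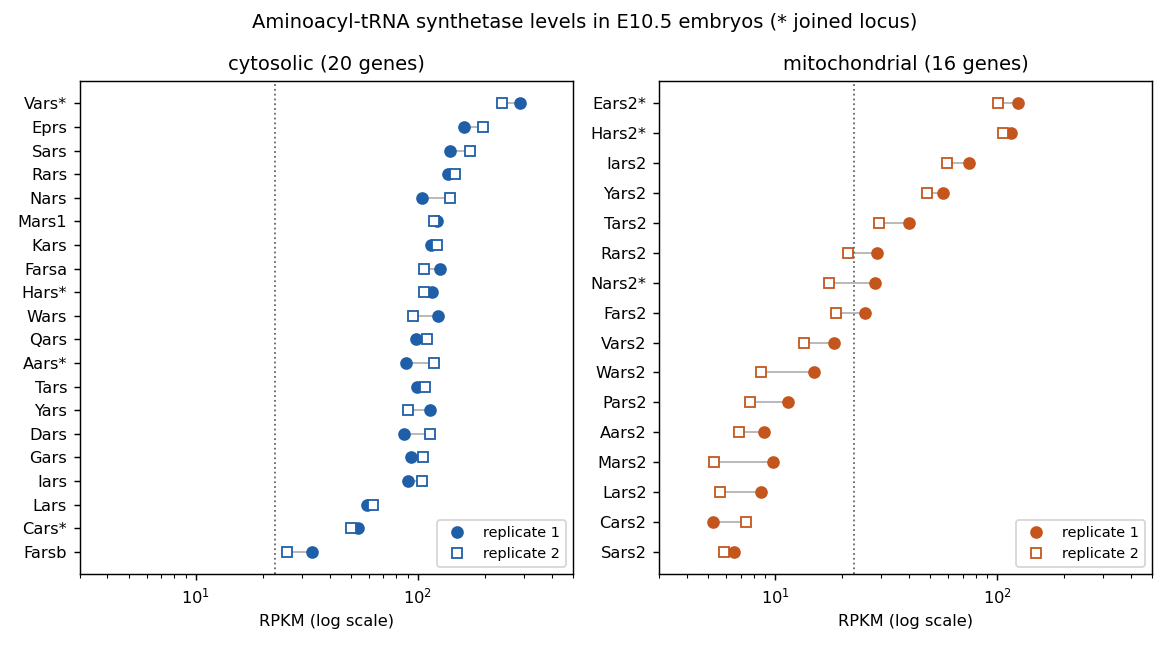
RPKM (log axis) of the 20 cytosolic and 16 mitochondrial synthetase genes, with filled circles for replicate 1, open squares for replicate 2 and a dotted line at 22.7, the mean over replicates of the median of protein-coding loci of 1 RPKM or more. Every cytosolic gene lies to the right of that line, and 8 mitochondrial genes lie to its left in both replicates. An asterisk marks a locus joined with another gene, and Hars and Hars2 show the same locus.

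Among cytosolic genes the highest deposited values were those of Vars (288 and 239 RPKM), the valine enzyme, which associates with elongation factor subunits. It was followed by Eprs, the glutamate and proline enzyme (162 and 197), and by the serine enzyme Sars (139 and 171). Rars for arginine stood at 137 and 147, and Nars for asparagine at 104.8 and 139. The other 14 genes ranged from 33.4 to 126 in replicate 1 and from 25.7 to 122 in replicate 2, and 11 of them lay between 86.9 and 126 and between 90.5 and 122. Below that common level in deposited RPKM lay Lars, the leucine enzyme (58.7 and 63.1), Cars, the cysteine enzyme (53.8 and 49.7, joined with Gm15580), and Farsb. Vars is joined with a further identifier and Aars with Gm24103. The reads behind these values ranged from 786 for Farsb to 10288 for Eprs in replicate 1 and from 3549 to 71436 in replicate 2.

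The 8 synthetases of the multisynthetase complex (Dars, Eprs, Iars, Kars, Lars, Mars1, Qars and Rars) had a median of 106 and 116 RPKM, and the 11 cytosolic genes outside it 104.8 and 106. Both sets held high and low genes: within the complex, values ran from 58.7 to 162 in replicate 1 and from 63.1 to 197 in replicate 2. Of the 3 scaffold proteins, Aimp1 stood at 94.1 and 133, Aimp2 at 80.5 and 64.5 and Eef1e1 at 63.2 and 55.8, the last below the complex's range in replicate 2. Gars and Kars, whose single genes supply the glycine and lysine enzymes to both compartments, stood at 93.0 and 105 and at 115 and 122. Both lay inside the range of the other cytosolic genes.

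The cytosolic phenylalanine enzyme is a tetramer of equal numbers of alpha and beta subunits, yet the transcripts of its subunits differed. The alpha subunit Farsa stood at 126 and 106 RPKM and the beta subunit Farsb at 33.4 and 25.7. The difference was 1.95 ± 0.09 on the log2(RPKM + 1) scale (SD, n = 2), with Farsa higher in both replicates. A difference of this kind counted as beyond the replicate spread where it had 1 direction in both replicates and its mean exceeded a limit, set at 2 SD of the replicate ratio among loci of similar level. The limit here was 1.29. The difference was 1.56 ± 0.03 when the counts were divided by 1 coding length per gene in place of the authors' length, again past its limit of 0.63. The exons of Farsb overlap Sgpp2 on the other strand (2.50 and 1.75 RPKM), and strand use in counting is not given in the sources used here.

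Mitochondrial genes were spread more widely. Iars2 for isoleucine (74.3 and 59.5 RPKM) and Yars2 for tyrosine (57.2 and 48.0) were the highest that shared their locus with no other gene. The threonine enzyme Tars2 followed at 39.9 and 29.2. Next came Rars2 (28.6 and 21.3), Nars2 (28.1 and 17.4, joined with C230038L03Rik), Fars2 (25.3 and 18.7) and Vars2 (18.4 and 13.5), the enzymes for arginine, asparagine, phenylalanine and valine. The lowest 7 lay between 5.24 and 15.0 in replicate 1 and between 5.32 and 8.60 in replicate 2: Wars2, Pars2, Aars2, Mars2, Lars2, Cars2 and Sars2, for tryptophan, proline, alanine, methionine, leucine, cysteine and serine. The lowest by mean was Sars2, at 6.50 and 5.89. Its 141 and 726 reads gave exact 95% Poisson intervals of 5.47 to 7.67 and 5.47 to 6.33 RPKM, and these intervals overlapped. Such intervals cover counting error only. Neighbours in this low group, such as Lars2 (8.59 and 5.66) and Mars2 (9.80 and 5.32), changed order between replicates and were not separated.

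Pairs of enzymes for the same amino acid were compared within each replicate. Of 16 pairs, the cytosolic gene was higher than its mitochondrial partner in both replicates in 16, and the difference lay beyond the replicate spread in 12. The median difference was 2.67 on the log2(RPKM + 1) scale. With 2 replicates, no test of a pair was made. Eprs entered 2 pairs, against Ears2 and Pars2, and Fars2 was set against both subunits of the cytosolic enzyme, so the pairs are not independent.

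The serine pair differed most: Sars exceeded Sars2 by 4.43 ± 0.30 (SD, n = 2), 21.4-fold in replicate 1 and 29.03-fold in replicate 2. Eprs exceeded the mitochondrial proline enzyme Pars2 by 4.11 ± 0.56, Vars exceeded Vars2 by 3.97 ± 0.11 and Mars1 exceeded Mars2 by 3.87 ± 0.52. For alanine, tryptophan, leucine and cysteine the differences were 3.55 ± 0.53, 3.14 ± 0.26, 2.95 ± 0.44 and 2.87 ± 0.38. In 7 of these 8 pairs the mitochondrial gene was 1 of the 7 lowest, and the exception was Vars2. Smaller differences beyond the spread were those of Rars over Rars2 (2.47 ± 0.36), Nars over Nars2 (2.39 ± 0.75), Farsa over Fars2 (2.36 ± 0.13) and Tars over Tars2 (1.57 ± 0.39). In replicate 1 alone Tars exceeded Tars2 by 1.29, about as much as the limit of 1.29.

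The 4 pairs within the spread were Yars against Yars2 (0.94 ± 0.06), Eprs against Ears2 (0.67 ± 0.42), Iars against Iars2 (0.54 ± 0.37) and Farsb against Fars2 (0.41 ± 0.04). In the first 3 the mitochondrial gene was 1 of the 3 highest of its compartment, and in the last the cytosolic gene was the lowest. On the other strand, the exons of Fars2 overlap Lyrm4 (42.9 and 31.1 RPKM) and those of Iars2 overlap Rab3gap2 (23.6 and 18.04), and the part of these neighbours in the pair differences was not tested. The limit for Eprs against Ears2 was wide, 2.06, since the highest level group of loci varied most between replicates. The call for Yars against Yars2 sat close to its limit of 1.04. The pair was beyond the spread when that was taken from protein-coding loci only (limit 0.74).

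**Figure D2:**
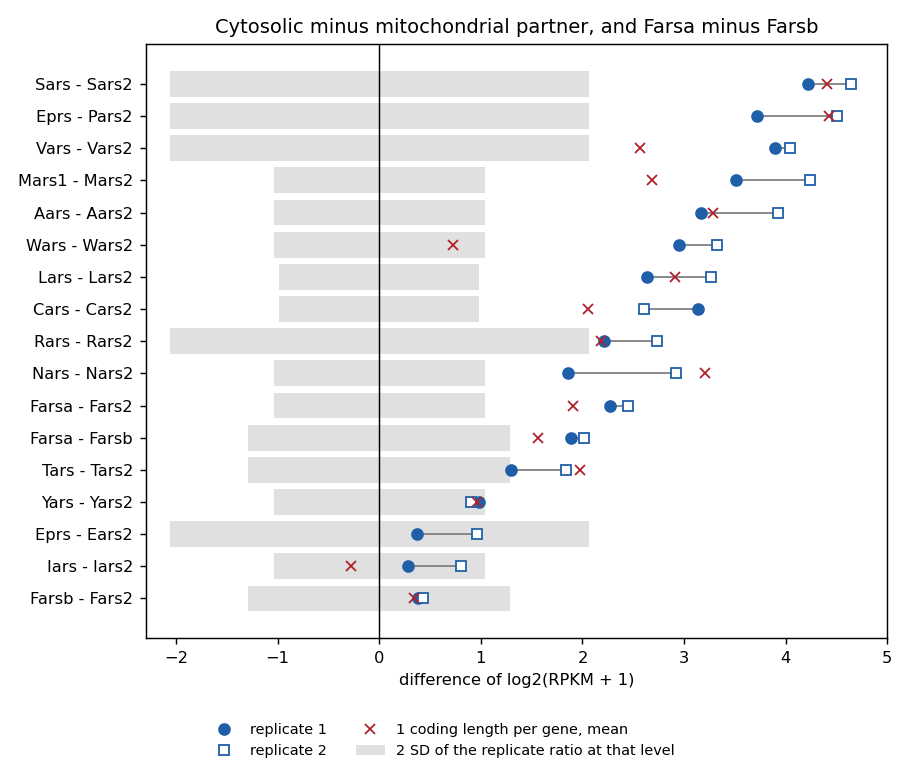
Differences in log2(RPKM + 1) between cytosolic and mitochondrial partners, and between Farsa and Farsb, with filled circles for replicate 1, open squares for replicate 2 and grey bars for 2 SD of the replicate ratio at that level. All circles and squares lie to the right of 0. Red crosses give the mean with 1 coding length per gene, which has limits of its own, and Iars minus Iars2 is then -0.28.

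The order of the levels depended on the transcript length behind the RPKM. In single-transcript coding loci of over 200 reads, the length implied by the deposited values matched the 5′ UTR, coding sequence and stop codon of the transcript within 0.5% in 54.3% of 1675 loci, and the full transcript in 2.39%. For loci with several transcripts the implied length could depart far from this. Vars, with 19 transcripts, had an implied length of 1247 bases in replicate 1 against 4051 for the transcript with the longest coding sequence. Wars2 went the other way, at 3489 against 1114 bases. The counts were therefore also divided by 1 coding length per gene, the 5′ UTR, coding sequence and stop codon of the transcript with the longest coding sequence, for the 33 synthetase genes in loci with a single coding gene. Whether reads in 3′ UTRs were counted is not given in the sources used here. If they were, genes with long 3′ UTRs could stand too high on both scales.

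On that scale 23 of 33 genes stayed within 1.5-fold of their RPKM, 9 were lower by more and 1 was higher. The 7 single-transcript genes had 0.949 to 1.01 times their RPKM. Vars moved from rank 1 to rank 11, with 88.6 and 66.3 scaled reads per kilobase of coding length, and Eprs (160 and 195), Sars (139 and 168), Nars (99.5 and 132) and Kars (104.5 and 111) led. Qars, Mars1, Iars, Cars, Nars2, Yars2, Yars and Wars were the other genes that were lower by more than 1.5-fold, and Wars2 was higher, at 47.0 and 27.1 against 15.0 and 8.60 RPKM. Lars stood at 56.8 and 61.1, by the mean of the replicates above Yars, Mars1, Iars and Qars. Its low place among cytosolic genes in RPKM thus depended on the length used. The compartments kept their order: the medians were 88.6 and 76.8 for 19 cytosolic genes and 13.9 and 10.1 for 14 mitochondrial genes. The lowest cytosolic gene was then Cars (24.6 and 23.1), and 6 mitochondrial genes in replicate 1 and 3 in replicate 2 lay above it. The cytosolic gene was higher in both replicates in 14 of 15 pairs, and 13 lay beyond the spread on this scale. Its limits were taken from loci with a single coding gene and were lower than the RPKM limits, so the counts of calls are not alike. The tyrosine pair was called at 0.97 with a limit of 0.62, against 0.94 with a limit of 1.04 in RPKM. The exception was Iars, at 45.9 and 40.2 against 60.95 and 45.0 for Iars2, a difference of -0.28 ± 0.17 within the limit of 0.58. The tryptophan pair shrank from 3.14 to 0.72 ± 0.36, just past its limit of 0.63 and below its RPKM limit of 1.04. The valine pair shrank from 3.97 to 2.57 ± 0.10.

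**Figure D3:**
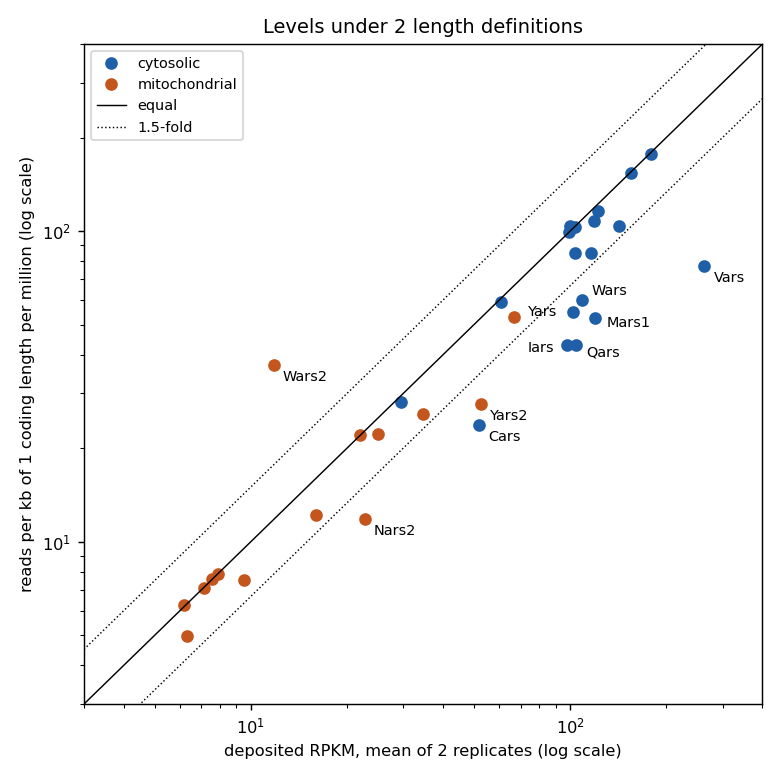
Mean over replicates of the deposited RPKM (horizontal, log axis) against scaled reads per kilobase of 1 coding length (vertical, log axis) for 33 synthetase genes, with a solid line where both are equal and dotted lines at 1.5-fold. The 10 named genes lie beyond 1.5-fold, and Wars2 is the 1 above the upper line.

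With 1 coding length per gene, class II cytosolic enzymes had a higher median than class I. The 9 class II genes had a median of 93.3 and 107, and the 9 class I genes 56.8 and 51.2. In deposited RPKM the classes were mixed, with class II at 99.2 and 113 and class I at 114 and 105, so the order of the classes in replicate 1 depended on the length used. Class I cytosolic genes had a median of 9 transcripts and class II genes 3. Whether the number of transcripts accounts for the difference was not tested. Among mitochondrial genes the order was the other way with 1 coding length, at 19.2 and 15.3 for 8 class I genes and 11.9 and 8.07 for 6 class II genes. In RPKM these medians were 18.4 and 13.5 for class I and 18.4 and 12.6 for class II.

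The replicates differed in how the compartments moved, although no synthetase locus differed 2-fold or more between them on the log2(RPKM + 1) scale, against 9.86% of loci of 1 RPKM or more. That share includes non-coding loci, and the share of protein-coding loci alone is not given. The SD of the replicate ratio was 0.65 over loci of 1 RPKM or more and 0.45 over the protein-coding ones. Replicate 2 was above replicate 1 in RPKM for 12 of 19 cytosolic genes and for 1 of 15 mitochondrial genes, and for 21.7% of loci of 1 RPKM or more. The median log2 ratio of replicate 2 to replicate 1 was 0.10 for cytosolic and -0.42 for mitochondrial genes, and -0.36 over loci of 1 RPKM or more. From 4.72 RPKM upward, loci of higher level had higher ratios. The median ratio was -0.57 for loci of 4.72 to 7.75 RPKM and -0.13 for loci of 69.2 to 132 RPKM. Relative to loci of their own level, the median cytosolic ratio was 0.16 and the median mitochondrial ratio 0.02, and 12 of 19 and 9 of 15 genes lay above their level's median. The difference between cytosolic and mitochondrial partners was larger in replicate 2 in 14 of 16 pairs.

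Of these 34 genes, 31 lay within 1 SD of the median of their level, and Cars2, Aars and Nars lay above that. The same share over all loci is not given, so this count cannot tell whether the synthetases varied less than other loci. The SD was widest in the highest level group, at 1.03. In deposited RPKM, Aars (88.2 and 119), Nars and Dars (86.9 and 113) had the highest cytosolic ratios, and Wars (123 and 94.8) and Farsb the lowest. Cars2 was the mitochondrial gene with the higher value in replicate 2 (5.24 and 7.35). Its reads per RPKM rose 3.24-fold between replicates, against 5.68-fold in single-transcript loci, so the length behind its RPKM was not the same in both, and with 1 coding length it was lower in replicate 2 (5.54 and 4.43). Its exons also overlap Naxd on the other strand, at 26.2 and 28.4 RPKM. For Aars and Iars (90.5 and 105 RPKM), reads per RPKM rose 4.39-fold and 4.30-fold. With 1 coding length, Aars stood at 83.5 and 86.8 and Iars at 45.9 and 40.2. The length behind the RPKM agreed between replicates within 1% for 14 of the 36 genes. The exons of Aars overlap Exosc6 on the same strand. In CPM, where counts are scaled only to each library's total over loci, replicate 2 was above replicate 1 for 5 of 19 cytosolic and 0 of 15 mitochondrial genes, against 12.4% of loci, and the median ratio over loci of 1 RPKM or more shifted to -0.51. The totals over loci were above the library sizes implied by the RPKM, and rose 6.42-fold between replicates against 5.68-fold for those sizes. The direction for the cytosolic genes thus changed with the scaling, while their position above the mitochondrial genes did not.

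**Figure D4:**
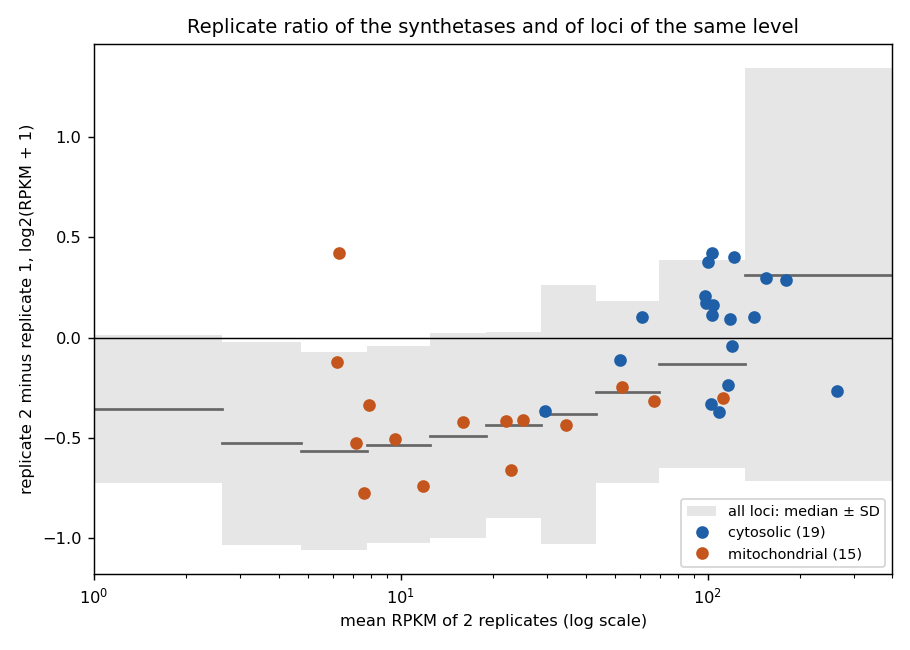
Log2 ratio of replicate 2 to replicate 1, with 1 added to RPKM, against mean RPKM (log axis) for 19 cytosolic and 15 mitochondrial genes. Grey steps give the median ± SD of loci of 1 RPKM or more in 10 level groups, and the synthetases follow the rise of these steps, with the median cytosolic gene at 0.10 and the median mitochondrial gene at -0.42.

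Several cytosolic synthetase genes are known targets of the transcription factor Atf4, which acts in the amino acid response through C/EBP-ATF elements near the start of transcription. The letters TGATGNAA, with N for any base, were searched on both strands from 250 bases before to 50 bases after the start in RefSeq's promoters of GRCm38.p6, where 27 of the 36 genes matched by symbol. These letters were present in 5 of 13 cytosolic and 0 of 14 mitochondrial genes, against 4.51% of 27025 genes in the table (3.97% of its 32851 promoters) and 2.74% of genes of protein-coding loci of 1 RPKM or more. Matches are printed, 1 for each of these 5 genes although Aars held 2, because all of them lay in cytosolic genes, with the motif in capitals and 10 bases on each side, 5′ to 3′ on the strand of the gene. All but that of Yars hold the motif as its reverse complement. The coordinates include the flanking bases, and the distance to the start is that of the first base in capitals.
Aars, chr8:111033841-111033868, plus strand, beginning 9 bases after the start: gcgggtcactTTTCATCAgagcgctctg
Gars, chr6:55037961-55037988, plus strand, beginning 30 bases before the start: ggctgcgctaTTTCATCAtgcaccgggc
Iars, chr13:49682127-49682154, plus strand, beginning 7 bases after the start: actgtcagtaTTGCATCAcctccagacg
Tars, chr15:11399656-11399683, minus strand, beginning 15 bases before the start: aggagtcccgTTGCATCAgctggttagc
Yars, chr4:129189896-129189923, plus strand, beginning 3 bases after the start: cgagctcagcTGATGCAAcccgacggga

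A match of letters is a description and not a site in use, and the embryos had no treatment that would bear on it. The 5 genes with a match ranged from 88.2 to 114 RPKM in replicate 1 and from 90.5 to 119 in replicate 2, and the 8 cytosolic genes without one from 33.4 to 162 and from 25.7 to 197. The range of the former lay inside that of the latter. Of 12 genes of the amino acid response, 10 reached 1 RPKM in both replicates, against 65.1% of protein-coding loci. Atf4 itself was highest (234 and 270.5), followed by the serine synthesis enzyme Psat1 (169 and 159) and, by the mean of the replicates, the amino acid transporter subunit Slc3a2 (60.1 and 39.1). Chac1, a glutathione-degrading enzyme, was lowest (0.172 and 0.531), with 2 reads in replicate 1 and 35 in replicate 2. Trib3 (1.98 and 0.968) also missed 1 RPKM in replicate 2. Ddit3 (54.1 and 45.1, joined with Gm4189) overlaps Mars1 on the other strand, and both it and Trib3 were named after their values were seen.

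Partners of the synthetases in charging and processing tRNA were also present, with 42 of 42 genes of 6 lists at 1 RPKM or more in both replicates. The same held for 49.4% of all loci and 65.1% of protein-coding loci. Tarsl2, a further cytosolic threonine enzyme, stood at 60.7 and 52.5 RPKM, joined with Tm2d3. Mitochondria make glutaminyl-tRNA by amidation of a misacylated tRNA, and the 3 subunits of that amidotransferase stood at 32.1 and 19.6 for Qrsl1, 15.9 and 10.7 for Gatb and 15.3 and 10.4 for Gatc. Mtfmt, which formylates the initiator methionyl-tRNA of mitochondria, stood at 19.9 and 12.7. These levels lay in the range of the mitochondrial synthetases. All 5 named genes were lower in replicate 2, as were most loci: only 21.7% of loci of 1 RPKM or more were higher there.

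The mitochondrial translation factors passed at all 10 loci, with a median of 63.8 and 56.1 RPKM, above the median of the mitochondrial synthetases. The elongation factor Gfm1 (120 and 119, joined with Lxn) and the initiation factor Mtif3 (89.6 and 78.05, joined with Gtf3a) were highest and the release factor Mtrf1 was lowest (13.8 and 7.40). In all, 5 of these 10 loci were joined. The 14 genes of tRNA maturation and export all passed too, with a median of 70.5 and 54.05. The La protein Ssb, which binds the ends of new small RNAs, was far the highest (1095 and 1533). The tRNA ligase Rtcb (136 and 124, joined with Ascl4) and the CCA-adding enzyme Trnt1 (130 and 101) followed by the mean of the replicates, and Elac1 was lowest (7.51 and 5.58).

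Proofreading and selenocysteine genes lay lower. The 4 genes that clear mischarged tRNA ranged from Aarsd1 (50.7 and 46.5, joined with Rundc1), Prorsd1 (33.3 and 31.7) and Dtd1 (28.5 and 27.5) to Dtd2 (22.1 and 21.6). Selenocysteine is made on its own tRNA after charging with serine, and the 5 genes of that route were led by Sephs2 (64.6 and 42.6), Pstk (47.1 and 42.0) and Secisbp2 (47.3 and 31.0), with Sepsecs lowest (15.7 and 10.5). All 9 of these genes reached 1 RPKM in both replicates.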

How the data were processed

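Per the submitters' processing notes, TopHat and build mm9 were used, without a version. The read counter and the use of strand were not given in the sources used here. Per the file headers, the authors deposited RPKM and whole-number read counts per locus. The 34676 rows were summed by gene identifiers into 34624 loci, of which 2473 joined several. Library sizes implied by the RPKM of single-transcript non-coding loci were 13711737 and 77921398 reads. No count test was possible with 1 group.

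Log values are log2(RPKM + 1). The replicate spread was taken over 10 level groups of loci of 1 RPKM or more in both replicates, and the code was tested on simulated data. Gene types and lengths came from GENCODE M21, on a later build. Python 3.11.15, pandas 2.3.3 and numpy 2.4.6 were used. The members and lists were chosen with earlier results of these data known. All members could be named, and of each other list the 3 highest, the lowest and those at 0. Alternatives covered the unit, pseudocount, minimum, scaling, joined loci, rows per locus and each replicate. Those on coding length and on a spread from coding loci were chosen after seeing the data. Some values are not reported here.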

Additional observations from a re-analysis of the deposited data

How the results depend on the processing

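The detection of the cytosolic and mitochondrial genes, the count of pairs beyond the replicate spread (8 to 14, the former with 11 pairs left in single-identifier loci) and the count of list genes (41 to 53) stayed within 1.5 times under the alternatives run. Of the single lists, that of mitochondrial translation factors kept 5 of 5 loci once joined loci were left out. With single-identifier loci only, the log2 ratio of the cytosolic over the mitochondrial median was 3.26 in place of 2.76. The median replicate ratio was -0.12 for cytosolic genes in CPM. With replicates rescaled to the same median it was 0.56 for cytosolic and 0.026 for mitochondrial genes. Of 164 pair values under alternatives, 159 kept their direction and call, 4 became calls and 1 reversed: Iars minus Iars2 was -0.28 with 1 coding length per gene. Not all of the 159 could have changed. Every member reached 1 RPKM, so that minimum removed none, and leaving out joined loci does not alter the pairs that remain. Taking the highest row of each locus also left the pair differences the same. Eprs minus Ears2 was called only in CPM (2.44). No paired analysis was possible because the series has 1 group. Replicate 1 had fewer reads, down to 134 for Cars2, and so limits the precision of the low genes.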
